A study of Mus musculus with 2 samples.

Results

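TRAV12 is a subgroup of V genes of the T cell receptor (TCR) alpha chain, TRA. Its chains were taken from the deposited contig annotations of thymic CD4 single positive (SP) T cells, as every TRA contig whose V gene is TRAV12-, TRAV12D- or TRAV12N- followed by a number. They came to 419 of 3782 TRA chains, 206 of 1862 in the library from wild type (WT) C57BL/6J mice and 213 of 1920 in the library from mice with a germline knockout of Btla, C57BL/6-Btla KO. A TRA chain was found in only 1704 of 4040 WT cells and 1798 of 5077 Btla KO cells. Shares of TRA chains describe these cells alone. Mice were 8 to 12 weeks old, and no treatment other than the genotype is named. CD4 SP cells were purified from thymocytes by negative selection with a naive CD4 kit, and their TCR transcripts were sequenced cell by cell with the 10x Genomics V(D)J workflow. The sources used here do not name the number of mice behind a library, so each genotype is 1 sample. All shares carry an exact 95% binomial interval, which covers counting error only. No test between the genotypes was possible, and no p-value is given. The libraries hold TCR transcripts only, so neither the knockout nor the CD4 SP identity could be checked on marker genes.

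The alpha chain locus joins a V segment to a J segment, TRAJ, and the join forms the CDR3, the loop that mostly contacts the peptide. CDR1 and CDR2 are encoded in the V gene and mostly contact the MHC molecule. An alpha locus can rearrange again on the same allele, each time joining a V further from the J segments to a J further 3′, until positive selection stops recombination. In the C57BL/6 strain a stretch of the V region is present in several copies, named with D and N, and they lie 5′ of the cluster that borders the J segments. BTLA is a co-inhibitory receptor of lymphocytes, and the study asked if its loss changes the repertoire of newly formed CD4 T cells.

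In the GENCODE M21 annotation of GRCm38, 10 TRAV12 genes lie on the plus strand of chromosome 14, of which 9 are functional V genes and 1, TRAV12-4, is a pseudogene. The contigs carried 6 of the names. The germline stretch from CDR1 through framework 2 to CDR2 is shown for these 6, with CDR1 and CDR2 in capitals, because it shows how the genes are told apart.
TRAV12D-3: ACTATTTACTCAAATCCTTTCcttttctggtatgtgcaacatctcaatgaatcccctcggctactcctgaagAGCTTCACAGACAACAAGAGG
TRAV12N-1: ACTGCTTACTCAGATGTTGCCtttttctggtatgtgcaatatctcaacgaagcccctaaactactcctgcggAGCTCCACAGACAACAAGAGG
TRAV12N-2: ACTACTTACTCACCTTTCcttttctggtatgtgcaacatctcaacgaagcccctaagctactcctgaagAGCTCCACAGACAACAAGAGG
TRAV12-1: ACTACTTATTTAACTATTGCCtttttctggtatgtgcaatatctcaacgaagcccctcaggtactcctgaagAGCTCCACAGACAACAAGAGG
TRAV12-2: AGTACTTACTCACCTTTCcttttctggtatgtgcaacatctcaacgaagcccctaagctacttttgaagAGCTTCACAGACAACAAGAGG
TRAV12-3: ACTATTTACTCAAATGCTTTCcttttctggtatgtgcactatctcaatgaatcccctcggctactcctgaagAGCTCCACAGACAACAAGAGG

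Each of the 6 names had a CDR1 of its own, in bases and in amino acids, while there were only 2 versions of CDR2. CDR1 was 21 bases long in 4 of the genes and 18 in TRAV12N-2 and TRAV12-2. Over the deposited V stretch of 267 or 270 bases, from framework 1 to framework 3, TRAV12D-3 and TRAV12-3 were the closest pair, with 9 mismatches and 96.7% identity. TRAV12N-2 and TRAV12-2 came next with 10 mismatches and 96.3% identity. The least alike were TRAV12N-1 and TRAV12-3, with 22 mismatches, and TRAV12N-1 and TRAV12-2, both pairs at 91.9%. Of the 419 chains, 416 carried exactly the main sequence of their name.

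The 3 names with D or N each stood for a pair of genes. The contig sequence of TRAV12D-3 was identical to the annotated TRAV12D-3 and TRAV12N-3, that of TRAV12N-1 to TRAV12N-1 and TRAV12D-1, and that of TRAV12N-2 to TRAV12N-2 and TRAV12D-2. The deposited columns therefore cannot say which copy of a pair was used, and the 3 functional genes missing from the names are the partners in these pairs. By contrast, TRAV12-1, TRAV12-2 and TRAV12-3 each matched 1 annotated gene. These last genes lie at 53538191 to 53538738, 53616315 to 53616914 and 53621657 to 53622245, between 535 and 619 kb upstream of TRAJ58, the most 5′ J segment found in the chains. The D and N copies lie between 916 kb (TRAV12N-3) and 1312 kb (TRAV12D-1) upstream of it. TRAV12N-2 is at 53226773 to 53227400 and its partner TRAV12D-2 at 52915799 to 52916426. In all that follows, "D or N copies" are chains of the first 3 names and "J-side cluster" chains of the last 3.

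TRAV12 took the same part of the recovered alpha chains in both libraries. Its share was 11.1% of TRA chains (9.67 to 12.6%) among WT cells and 11.1% (9.72 to 12.6%) among Btla KO cells, a difference of 0.0304 percentage points with an interval of -1.98 to 2.03. In both it ranked 3 among the TRAV subgroups, of which 20 were found in the WT and 19 in the Btla KO library.

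Within the subgroup, 1 name took a different share in the 2 libraries. TRAV12N-2, which cannot be told from TRAV12D-2, was carried by 26 WT and 52 Btla KO chains. This is 1.40% (0.914 to 2.04%) and 2.71% (2.03 to 3.54%) of TRA chains, 1.94-fold higher in the Btla KO library, and the intervals just overlap. The difference was 1.31 percentage points (0.408 to 2.25), an interval that leaves out 0. As a share of TRAV12 chains TRAV12N-2 was 12.6% (8.41 to 17.9%) against 24.4% (18.8 to 30.8%), with intervals apart. Of the 6 names, TRAV12N-2 was the only one past a 1.5-fold difference. The background is high, as 30.3% of the 66 single TRAV genes with at least 20 chains differed by 1.5-fold or more in either direction. The gene was singled out after its values were seen.

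The other 5 names were each lower in the Btla KO library, with overlapping intervals. TRAV12D-3 had 46 WT and 42 Btla KO chains, 2.47% and 2.19% of TRA chains. TRAV12-2 had 42 and 40 chains, 2.26% and 2.08%. For TRAV12-3 the numbers were 39 and 33, and for TRAV12-1 they were 32 and 31. TRAV12N-1 was the least used in both, with 21 chains (1.13%) and 15 chains (0.781%), 1.44-fold lower in the Btla KO library and just short of 1.5-fold. In the WT library the neighbouring names in this order had overlapping intervals throughout.

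**Figure D1:**
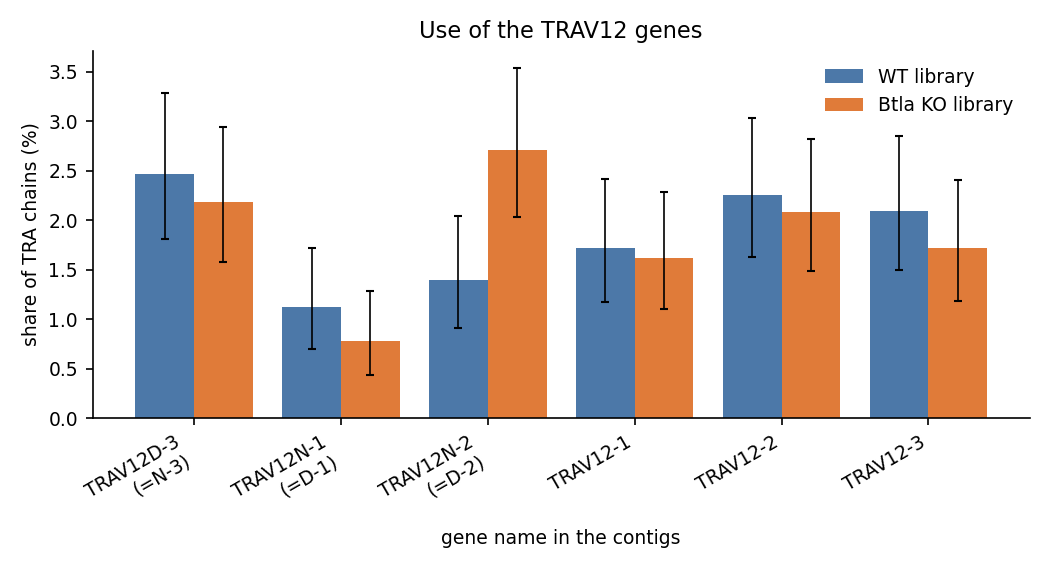
Share of all TRA chains (%, y axis) that carried each of the 6 TRAV12 gene names (x axis) in the WT and Btla KO libraries, with exact 95% binomial intervals as error bars and the identical partner gene in brackets. TRAV12N-2 stands at 1.40% and 2.71%, and for the other names the intervals of both libraries overlap widely.

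Folding the copies by gene number gave a smaller difference. Genes numbered 1 made up 25.7% of WT and 21.6% of Btla KO TRAV12 chains, and genes numbered 3 made up 41.3% and 35.2%. Genes numbered 2 made up 33.0% (26.6 to 39.9%) and 43.2% (36.4 to 50.1%), 1.31-fold, with overlapping intervals. As a share of TRAV12 chains the difference for genes numbered 2 was 10.2 percentage points (0.880 to 19.2), which leaves out 0. As a share of all TRA chains it was 1.14 percentage points (-0.149 to 2.44), which includes 0. The D or N copies together held 45.1% of WT and 51.2% of Btla KO TRAV12 chains, with a difference of 6.03 percentage points and an interval of -3.52 to 15.4.

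TRAJ partners were spread over the whole J cluster. TRAV12 was joined to all 43 TRAJ segments of the WT library, and to 42 of them in the Btla KO library. In the WT library TRAJ32, TRAJ40 and TRAJ49 led with 10 chains each, followed by TRAJ37 with 9 and by TRAJ31 and TRAJ43 with 8. In the Btla KO library the order was different, with TRAJ23 (14 chains), TRAJ4 (13), TRAJ9 and TRAJ26 (11 each) and TRAJ21 and TRAJ22 (10 each) in front. All 6 leading segments of the WT library are numbered above 30, and all 6 of the Btla KO library below it. A low number means a position near the constant gene TRAC, at the 3′ end.

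The 3 segments with the largest differences are given in full, and their intervals are not adjusted for that choice. Of the 12 segments named above, only TRAJ4 and TRAJ32 had a difference whose interval leaves out 0. TRAJ4 was in 1.94% of WT and 6.10% of Btla KO TRAV12 chains, a difference of 4.16 percentage points (0.298 to 8.39). TRAJ23 was in 2.91% and 6.57%, and the difference of 3.66 points had an interval of -0.548 to 8.10 that includes 0. TRAJ32 was lower in the Btla KO library, at 1.41% against 4.85%, and the difference of -3.45 points had an interval of -7.41 to -0.00398. Of the 19 segments with at least 10 TRAV12 chains, 63.2% differed by 1.5-fold or more in either direction, 36.8% being higher and 26.3% lower in the Btla KO library. The counts a segment are small here, and their part in this share was not tested. In the other TRA chains, where counts are larger, the share was 23.3% of 43 segments, with 4 segments (9.30%) higher and 6 lower in the Btla KO library. The directions were not spread evenly along the cluster. Among the 11 segments up to TRAJ30, 6 were at least 1.5-fold higher in the Btla KO library and 0 were that much lower, while among the 8 from TRAJ31 on, 1 was higher (TRAJ45, 3 and 8 chains) and 5 were lower. The other TRA chains leaned the same way, with 4 of 21 segments up to TRAJ30 higher and 2 lower, and 0 of 22 from TRAJ31 on higher and 4 lower.

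The share of chains joined to TRAJ1 to TRAJ30, the 3′ part of the cluster, summarises this. For TRAV12 it was 44.7% (37.7 to 51.7%) in the WT library, 92 of 206 chains, and for 133 of 213 Btla KO chains it was 62.4% (55.6 to 69.0%). The difference was 17.8 percentage points, with an interval of 8.24 to 26.9. The median segment was TRAJ32 in the WT and TRAJ23 in the Btla KO library. The size rests on the boundary, since with one at TRAJ20 the difference was 8.51 points (-0.349 to 17.2), an interval that includes 0, and with one at TRAJ40 it was 8.94 points (0.683 to 17.1). Over all other TRAV subgroups the shares were 49.2% and 57.4%, a difference of 8.26 points (4.89 to 11.6). The intervals of the TRAV12 difference and of the other difference overlap, so a larger shift in TRAV12 was not shown. This split of the cluster was known from an earlier account of all TRA chains in the same libraries, of which TRAV12 is a part.

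The TRAJ partners varied most with the place of the V gene. Among D or N copies in the WT library, 67.7% of 93 chains (57.3 to 77.1%) used TRAJ1 to TRAJ30, against 25.7% of 113 chains (17.9 to 34.7%) of the J-side cluster. For Btla KO chains the shares were 86.2% of 109 chains (78.3 to 92.1%) and 37.5% of 104 chains (28.2 to 47.5%). The gap between far and near genes was 42.1 percentage points (28.8 to 53.3) in the WT library and 48.7 points (36.4 to 58.9) in the Btla KO library. Both gaps are larger than the difference between the libraries. The other TRAV subgroups with D or N names had gaps of 34.0 points (29.2 to 38.6) and 32.6 points (27.7 to 37.3), although some of their names without D or N may also stand for identical copies. For the Btla KO library the TRAV12 interval overlaps this one only slightly, and the difference between the gaps was not tested.

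By single name the order was kept in each library, with all 3 names of the far copies above all 3 of the J-side cluster. TRAV12-3 had the lowest share in the WT library, 6 of 39 chains (15.4%), and TRAV12N-2 the highest, 19 of 26 (73.1%). The lowest Btla KO share was that of TRAV12-1, 10 of 31 chains (32.3%), close to TRAV12-3 with 11 of 33 (33.3%), although TRAV12-1 lies furthest from the J segments among these 3 J-side genes. In the Btla KO library TRAV12N-2 again had the highest share, 46 of 52 chains (88.5%), ahead of TRAV12N-1 at 13 of 15 (86.7%) and TRAV12D-3 at 35 of 42 (83.3%), and these 3 had overlapping intervals.

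**Figure D2:**
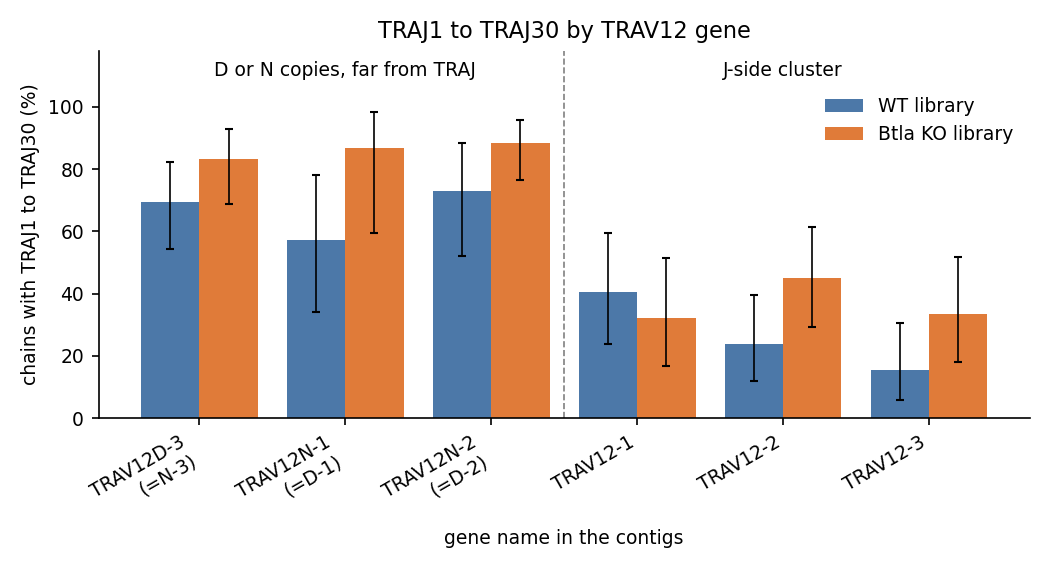
Share of chains joined to TRAJ1 to TRAJ30 (%, y axis) for each TRAV12 gene name (x axis) in the WT and Btla KO libraries, with exact 95% binomial intervals as error bars. The 3 D or N names on the left lie between 57.1% and 88.5%, and the 3 names of the J-side cluster on the right between 15.4% and 45.0%.

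The difference between the libraries had the same sign in 5 of the 6 names. TRAV12-2 went from 10 of 42 WT chains (23.8%) to 18 of 40 Btla KO chains (45.0%), 21.2 percentage points with an interval of 0.673 to 39.5. TRAV12-3 went from 15.4% to 33.3%, TRAV12D-3 from 69.6% to 83.3%, TRAV12N-2 from 73.1% to 88.5% and TRAV12N-1 from 57.1% to 86.7%, and their differences had intervals that include 0. TRAV12-1 went the other way, from 13 of 32 chains (40.6%) to 10 of 31 (32.3%), also with an interval that includes 0. Grouped by place, the D or N copies differed by 18.5 points (6.92 to 29.8) and the J-side cluster by 11.8 points (-0.512 to 23.8). In the other TRAV subgroups with D or N names, chains named D or N differed by 5.04 points (0.768 to 9.31). Those of the same subgroups named without D or N differed by 6.47 points (1.30 to 11.6). In both places the TRAV12 interval overlaps that of the other subgroups, and a larger difference in TRAV12 was not tested.

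Because TRAV12N-2 was both more used in the Btla KO library and mostly joined to 3′ segments, the share was also computed with the genes held at fixed weights. With the WT makeup of genes and the Btla KO shares, 59.1% of chains had TRAJ1 to TRAJ30, a change of 14.4 points from 44.7%. With the Btla KO makeup and the WT shares the value was 48.3%, a change of 3.69 points from 44.7%. Leaving out TRAV12N-2 altogether gave 40.6% (33.3 to 48.1%) and 54.0% (46.0 to 61.9%), a difference of 13.5 points (2.87 to 23.7). The weighted values carry no interval and rest on names with as few as 15 chains. What lies behind the difference between the libraries was not tested.

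**Figure D3:**
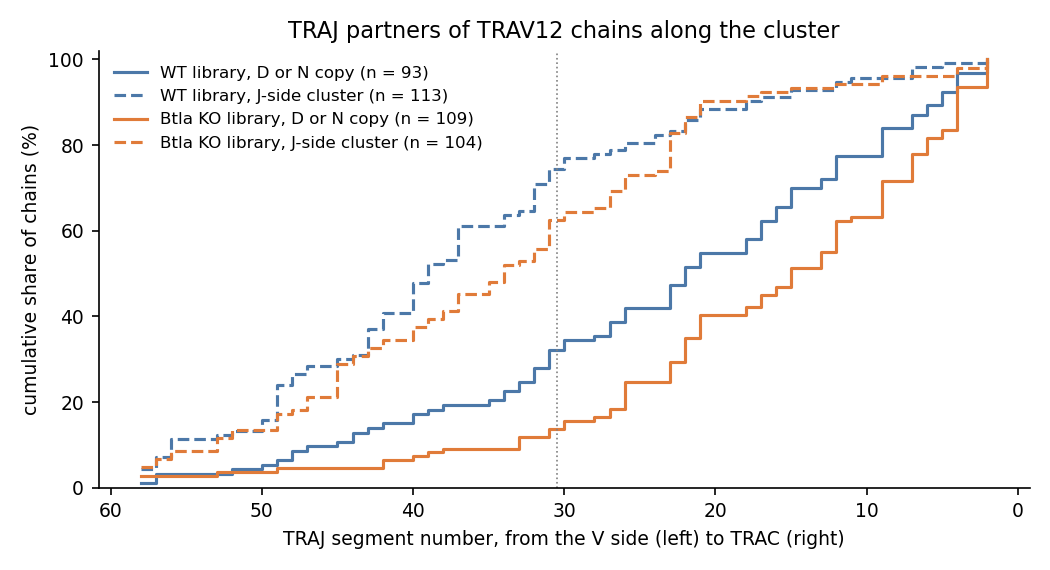
Cumulative share of TRAV12 chains (%, y axis) along the TRAJ segments by number (x axis, reversed so that the V side is left and TRAC right), for D or N copies (solid) and the J-side cluster (dashed) in the WT and Btla KO libraries. At the dotted line between TRAJ31 and TRAJ30, the remaining share to the right is 67.7% and 86.2% for the D or N copies and 25.7% and 37.5% for the J-side cluster.

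Single combinations of V and J were rare. The chains formed 176 distinct TRAV12-TRAJ combinations, 126 in the WT and 119 in the Btla KO library, with 69 found in both. TRAV12-3 with TRAJ49 was the most frequent in the WT library, with 7 chains and 5 distinct CDR3 sequences. It was seen in 0 of 213 Btla KO chains, which allows a share of up to 1.41%. TRAV12-2 with TRAJ23 was the most frequent in the Btla KO library, with 6 chains and 5 distinct CDR3 sequences, and was seen in 0 of 206 WT chains, which allows up to 1.46%. Next in the WT library came TRAV12-1 with TRAJ37, TRAV12-3 with TRAJ32 and TRAV12D-3 with TRAJ12, at 5 chains each, against 1, 1 and 4 in the Btla KO library. The Btla KO library had, next in order, TRAV12D-3 with TRAJ4, TRAV12D-3 with TRAJ9 and TRAV12N-2 with TRAJ7, at 5 chains each, against 3, 2 and 2 in the WT library. Among the other subgroups with at least 100 chains, the TRAJ usage of TRAV9 was nearest to that of TRAV12, with a total variation distance of 0.160 over 43 segments and both libraries pooled (0 is identical usage). TRAV6 at 0.163 and TRAV13 at 0.164 followed closely. This distance grows as a subgroup has fewer chains, and TRAV9 had 229, TRAV6 600 and TRAV13 402.

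The CDR3 of a TRAV12 chain starts in its V gene. All 6 genes end in 14 germline bases after framework 3, in 2 versions that differ in the leucine codon, shown here in capitals.
TRAV12-1, TRAV12-3, TRAV12N-1 and TRAV12D-3: tgtgctCTGagtga
TRAV12-2 and TRAV12N-2: tgtgctTTGagtga

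Both versions encode Cys-Ala-Leu-Ser, and the last 2 bases begin the next codon. This start was found in 122 of 206 WT chains, 59.2% (52.2 to 66.0%), and in 133 of 213 Btla KO chains, 62.4% (55.6 to 69.0%). At least 12 germline V bases, which encode it, were kept in 106 and 120 chains, so in some the start was completed by other bases. In the other TRA chains Cys-Ala-Leu-Ser was found in 6.04% and 4.86%. Among single names it ran from 42.9% for TRAV12N-1 to 65.6% for TRAV12-1 in the WT library, and from 47.6% for TRAV12D-3 to 77.5% for TRAV12-2 in the Btla KO library. The most frequent residue in place of Ser at position 4 was Arg, in 13.1% of WT and 11.7% of Btla KO chains.

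Matching each CDR3 to its germline V end from the left and its germline TRAJ from the right gave the makeup of the junction. A mean of 11.3 ± 2.67 bases (SD over 206 chains) came from the V end in the WT library and 11.6 ± 2.55 (213 chains) in the Btla KO library. Bases matched by neither gene, counted as inserted, averaged 3.40 ± 2.22 and 3.06 ± 2.14. The J segment gave 26.5 ± 3.58 and 26.5 ± 3.97 bases. Chains without any inserted base made up 8.74% (5.26 to 13.5%) of the WT library and 15.0% (10.5 to 20.5%) of the Btla KO library, with overlapping intervals. In this way of counting, inserted bases that happen to equal the germline are taken as germline, so insertions are understated.

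All 14 germline V bases were kept in 62 WT chains, 30.1% (23.9 to 36.9%), and in 75 Btla KO chains, 35.2% (28.8 to 42.0%). When the end of a V segment is not trimmed, opening of its hairpin can leave a few palindromic bases, known as P nucleotides. At the TRAV12 end, which closes with GA, the first 2 of them would be TC. Directly after the untrimmed end, TC was found in 31 of 62 WT chains, 50.0% (37.0 to 63.0%), and in 26 of 75 Btla KO chains, 34.7% (24.0 to 46.5%). Among chains with a trimmed V end and at least 2 inserted bases, the next 2 bases were the palindrome of the last 2 kept in 2 of 111 WT chains (1.80%) and 5 of 104 Btla KO chains (4.81%). Untrimmed chains with at least 2 inserted bases, the matching class, had it in 30 of 50 (60.0%) and 24 of 56 (42.9%). Since the matched V stretch stops at the first base that differs from germline, the next base of a trimmed end is limited in which letters it can take.

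An untrimmed end fixes GA as the first bases of codon 5, so that only Asp or Glu can follow. Asp stood at position 5 of 50 of the 62 untrimmed WT chains (80.6%, 68.6 to 89.6%) and of 50 of the 75 untrimmed Btla KO chains (66.7%, 54.8 to 77.1%), with overlapping intervals, and Glu in all the others of them. Over all TRAV12 chains Asp was the most frequent residue at position 5 in both libraries, with 27.7% and 24.4%.

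CDR3 length, counted in amino acids from the conserved Cys to the Phe or Trp that ends the loop, was close in all groups. The mean was 13.7 ± 1.54 (SD over chains) for TRAV12 and 13.8 ± 1.48 for other TRA chains in the WT library, and 13.7 ± 1.66 and 13.7 ± 1.48 in the Btla KO library. TRAV12D-3 was the shortest name in both libraries, with means of 13.2 ± 1.59 (46 chains) and 12.8 ± 1.97 (42 chains), while the other 5 names had means between 13.6 and 14.1. TRAV12D-3 had a CDR3 of at most 12 amino acids in 11 of 46 WT and 16 of 42 Btla KO chains, 23.9% (12.6 to 38.8%) and 38.1% (23.6 to 54.4%). For TRAV12 as a whole such short loops were seen in 37 WT and 45 Btla KO chains, with a share of 21.1% in the latter, and in other TRA chains they made up 17.2% and 19.3%. The junctions of TRAV12D-3 had 25.1 ± 4.55 J bases and 2.85 ± 2.14 inserted bases over both libraries, against 26.5 ± 3.78 and 3.23 ± 2.18 for all TRAV12 chains.

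**Figure D4:**
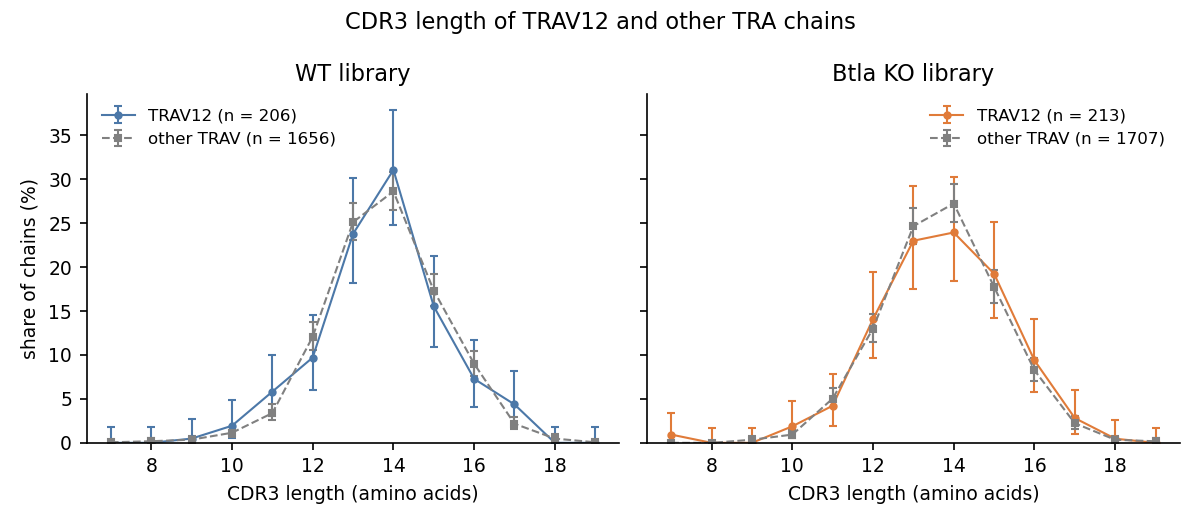
Share of chains (%, y axis) by CDR3 length in amino acids (x axis) for TRAV12 (coloured) and other TRA chains (grey) in the WT (left) and Btla KO (right) libraries, with exact 95% binomial intervals as error bars. The intervals of TRAV12 and of the other chains overlap at every length plotted, around means of 13.7 and 13.8 amino acids in the WT library.

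Almost every TRAV12 CDR3 was seen in a single cell. There were 405 distinct nucleotide sequences, and 11 of them were found in more than 1 cell, 5 within the WT library, 5 within the Btla KO library and 1 in both. These 11 were held by 24 cells, and 1 more sequence, of TRAV12N-2 with TRAJ12, was listed on 2 contigs of a single Btla KO cell. In 6 of them, each found in a pair of cells of one library, the cells also had a TRB CDR3 nucleotide sequence in common. The pairs are shown with the inserted bases in capitals.
TRAV12-3 with TRAJ49, WT: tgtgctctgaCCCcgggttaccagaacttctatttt
TRAV12-3 with TRAJ49, WT: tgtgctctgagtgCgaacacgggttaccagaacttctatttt
TRAV12-3 with TRAJ32, WT: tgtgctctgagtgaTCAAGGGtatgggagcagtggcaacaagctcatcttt
TRAV12-3 with TRAJ43, WT: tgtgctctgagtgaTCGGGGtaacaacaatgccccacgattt
TRAV12-1 with TRAJ12, WT: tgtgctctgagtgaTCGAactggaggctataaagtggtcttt
TRAV12N-2 with TRAJ9, Btla KO: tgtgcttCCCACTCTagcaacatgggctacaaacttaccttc

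In 4 others every cell had a TRB chain, but no TRB sequence was common to all of them. Their sequences are shown in the same way, because 3 of the 4 needed no inserted base.
TRAV12D-3 with TRAJ26, 1 WT and 1 Btla KO cell: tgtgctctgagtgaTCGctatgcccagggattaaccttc
TRAV12D-3 with TRAJ4, 2 Btla KO cells: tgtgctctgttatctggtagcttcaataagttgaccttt
TRAV12-1 or TRAV12-3 with TRAJ45, 3 Btla KO cells: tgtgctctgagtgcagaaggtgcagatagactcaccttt
TRAV12N-2 with TRAJ23, 3 Btla KO cells: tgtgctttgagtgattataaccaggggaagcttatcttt

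In both sequences found in 3 cells, 1 pair of cells shared a TRB sequence and the remaining cell did not. The sequence found in both libraries had 3 inserted bases, of which the first 2 were TC. The 6 sequences with a common TRB had from 1 to 8 inserted bases. The last of the 11, TRAV12-2 with TRAJ23 in 2 Btla KO cells, had a TRB chain in only 1 of them. At the amino acid level 391 distinct CDR3 were found, and 8 occurred in both libraries. Of these 8, 7 came from more than 1 nucleotide sequence and 5 from more than 1 TRAV12 gene name.

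A TRB chain was recovered in 201 of 206 WT cells with a TRAV12 chain (97.6%) and in 202 of 209 Btla KO cells (96.7%). The joint call TRBV12-2+TRBV13-2, carried by 19 and 18 of these TRB chains, was counted as TRBV13. Counted so, TRBV13 was the most frequent partner. It had 19.9% of 211 TRB chains (14.7 to 25.9%) in the WT and 21.2% of 217 (16.0 to 27.2%) in the Btla KO library. Were the joint call counted as TRBV12, which had 15 and 17 chains without it, TRBV12 would lead in both libraries. With the joint call kept apart the TRBV13 values were 10.9% and 12.9%, and with contigs of 3 or more UMIs they were 22.0% and 11.5%. Against other cells with a TRA chain, over both libraries, the difference was -0.330 percentage points (-4.16 to 3.97). After TRBV13 came TRBV19 (8.06%), TRBV5 (7.58%), and TRBV2 and TRBV12 (7.11% each) in the WT library. Among Btla KO cells they were TRBV16 (10.1%), TRBV12 and TRBV31 (7.83% each) and TRBV10 (6.45%).

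TRAV12 cells differed most from other cells in TRBV12 and TRBV20, and in both they were lower. Over both libraries the TRBV12 difference was -3.26 percentage points, with an interval of -5.66 to -0.198, and it was -4.37 in WT and -2.20 in Btla KO cells. For TRBV20 the difference was -2.05 (-3.15 to -0.253), with -1.37 in WT and -2.71 in Btla KO cells. These are the largest of 18 subgroup differences, and the intervals are not adjusted for that choice. Counting the joint call as TRBV12 gave a TRBV12 difference of -2.42 (-5.88 to 1.58), which includes 0. With contigs of 3 or more UMIs it was -2.44 (-5.73 to 2.01), and the TRBV20 difference was -1.22 (-2.69 to 1.57). TRBV16 and TRBV31 were higher with TRAV12 in the Btla KO library, by 3.61 and 3.44 points. The intervals of the shares overlap, but no interval of these differences was computed within a library, so overlap does not decide if they leave out 0. In the WT library TRBV16 and TRBV31 were close to the other cells, at -0.210 and 0.160 points. Over both libraries the differences were 1.72 (-0.650 to 4.77) and 1.83 (-0.257 to 4.62), and both intervals include 0.

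**Figure D5:**
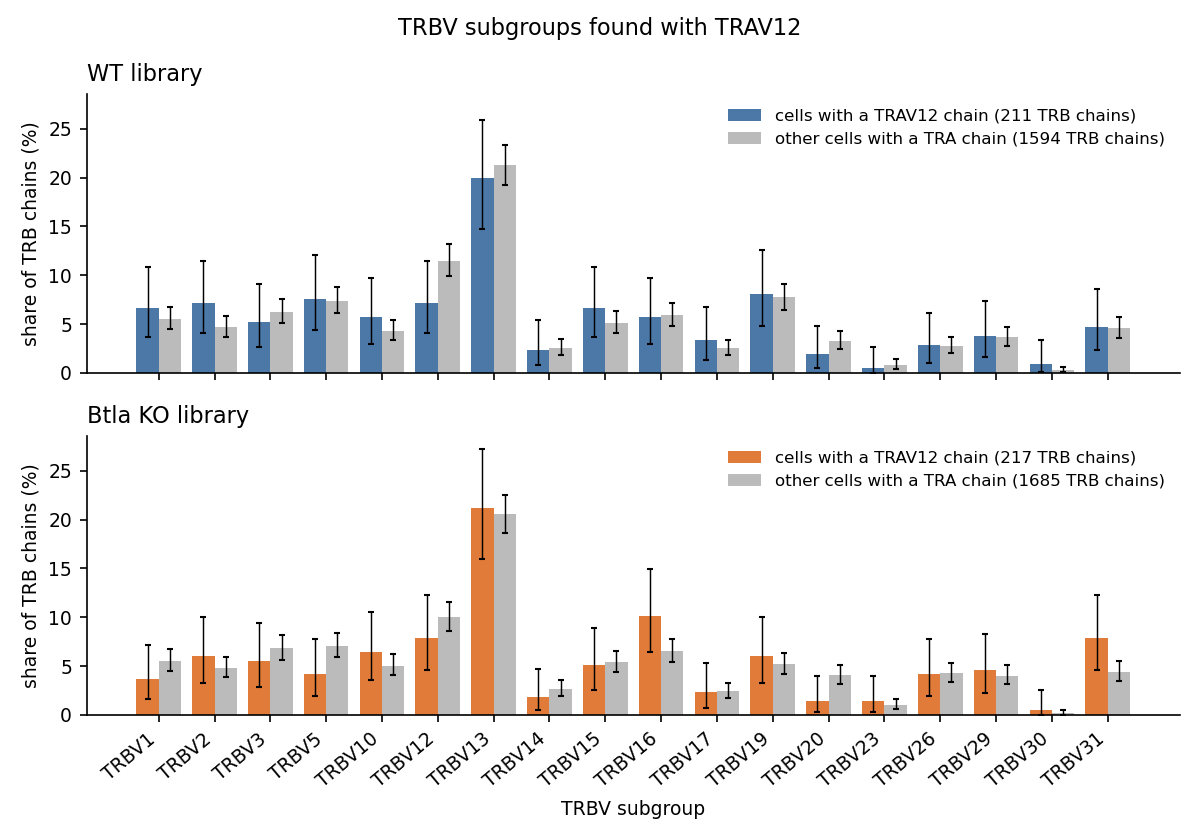
Share of TRB chains (%, y axis) by TRBV subgroup (x axis) in cells with a TRAV12 chain (coloured) and in other cells with a TRA chain (grey), WT library above and Btla KO library below, with exact 95% binomial intervals as error bars. With the joint call counted as TRBV13, TRBV13 leads in all 4 sets of chains, at 19.9% and 21.2% with TRAV12. TRBV12 and TRBV20 are lower with TRAV12 in both libraries.

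TRAV12 contigs rested on few molecules. The median was 3 UMIs a contig in both libraries, as it was for other TRA chains, and 1 UMI lay behind 15.5% of WT and 19.7% of Btla KO TRAV12 contigs. The equal medians hide that TRAV12 contigs were shallower than other TRA contigs in the WT library. There, 61.2% (54.1 to 67.9%) of TRAV12 contigs had at least 3 UMIs, against 69.7% (67.4 to 71.9%) of other TRA contigs. In the Btla KO library the shares were 54.0% and 54.6%. The 206 WT contigs had 757 UMIs and 253005 reads, and the 213 Btla KO contigs 651 UMIs and 170895 reads. Medians by name ran from 2.5 to 4 UMIs for WT contigs and from 2 to 3 for Btla KO contigs, and the highest single contig, of TRAV12-2 in the Btla KO library, had 35. Of the 30 barcodes common to both libraries, 1 Btla KO cell and 0 WT cells held a TRAV12 chain.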

How the data were processed

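TCR contigs of thymic CD4 SP T cells were analysed from 1 WT and 1 Btla KO library. The authors assembled and annotated them with Cell Ranger 7.2.0 and its prebuilt GRCm38 reference, and deposited, for each contig, the raw counts of its reads and of its UMIs (unique molecular identifiers), not normalized. The contigs were all high-confidence, full-length, productive and from called cells. The authors' summary tables of V gene use, clones and CDR3 lengths, made from these contigs, were not used.

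Every TRAV12 contig was counted, and no step removed droplets with more than 1 cell. Shares have exact (Clopper-Pearson) 95% intervals and differences have Newcombe intervals. Both cover counting error only, since the contigs of a library are not replicates. A count of 0 is given with the limit of 3 counts. Germline sequences and positions come from GENCODE M21 on GRCm38, and the chains carried the main V sequence of their gene in 416 of 419 cases. Germline TRAJ sequences were found for all 43 segments. Named TRAJ are the 5 most used in each library, with ties, and the 3 with the largest difference. Named TRBV are the 5 most used, with ties, and the 2 with the largest difference from other cells. Named combinations are the 3 most frequent, with ties, and the TRAV subgroups named for likeness are the nearest 3. The members, lists and rules were chosen with earlier results of these data known. The split by place in the locus, the fixed gene weights and the palindromic bases were chosen after the TRAV12 values were seen. Junction splitting and intervals were tested on simulated data. Over 4000 simulated chains with random V and J sequences, not the real genes, inserted bases were understated by a mean of 0.517. The V bases were overstated by 0.300. Simulated 95% intervals held the true value in 95.8% of cases for shares and 94.9% for differences. These simulated chains were drawn independently, so the check does not cover real chains that share a cell or a clone. Python 3.11.15, pandas 2.3.3, scipy 1.17.1 and Biopython 1.88 were used.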

Additional observations from a re-analysis of the deposited data

How the results depend on the processing

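Values were recomputed from contigs with 3 or more UMIs, from cells holding a single TRA and a single TRB chain, from the TRA chain with most reads in each cell, from each distinct chain counted once, and without the barcodes that both libraries share. In all of these the TRAV12 share of TRA chains, the shares by gene number, the TRAJ1 to TRAJ30 shares, the mean CDR3 length and the Cys-Ala-Leu-Ser start stayed within their intervals. An exception among the TRBV13 shares was the Btla KO value with at least 3 UMIs, 11.5%. The Btla KO share of TRAJ1 to TRAJ30 in the J-side cluster was 48.2% with at least 3 UMIs, above its interval. Under these 5 settings the gap between the libraries in TRAJ1 to TRAJ30 lay between 16.4 and 21.7 percentage points, and that in the TRAV12N-2 share of TRAV12 chains between 10.4 and 14.9. Moving the boundary to TRAJ20 gave 26.7% of WT and 35.2% of Btla KO chains, and moving it to TRAJ40 gave 70.9% and 79.8%. Without folding of the copies, TRAV12-1, TRAV12-2 and TRAV12-3 alone made up 15.5%, 20.4% and 18.9% of WT and 14.6%, 18.8% and 15.5% of Btla KO TRAV12 chains. With the joint TRBV call kept apart, TRBV13 made up 10.9% and 12.9%. The median CDR3 length was 14 in both libraries. The TRBV12 difference between TRAV12 and other cells lay between -3.26 and -2.42 points over 7 alternatives, and its interval included 0 in 5 of them. That of TRBV20 lay between -2.77 and -1.22 over 5 alternatives and included 0 in 1. The values for TRAV12N-2, for the split by place, for the TRBV12 and TRBV20 differences and for the difference between the libraries were added after the data were seen. No paired analysis was possible because there is 1 library per genotype, and no replicate could be left out. The numbers of TRAV12 chains limit the single names most, as TRAV12N-1 rests on 21 and 15.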

Other observations

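Some T cells carry a second rearranged alpha chain, since both alleles can rearrange. TRAV12 chains lay in a cell with more than 1 TRA chain in 20 of 206 cases in the WT library, 9.71% (6.03 to 14.6%), against 296 of 1656 other TRA chains, 17.9% (16.1 to 19.8%), with intervals apart. In the Btla KO library the shares were 23 of 213, 10.8% (6.97 to 15.8%), and 221 of 1707, 12.9% (11.4 to 14.6%), and they overlap. Among the 5 other most used subgroups the WT shares ran from 12.4% for TRAV14 to 19.7% for TRAV13, so TRAV12 had the lowest of these 6, and its interval overlaps that of TRAV14. Chains of 1 cell are not independent, and the difference was not tested. In 4 Btla KO cells and 0 WT cells both chains were TRAV12, each of them resting on 1 UMI, and in 1 of these 4 cells both contigs had the same CDR3, so that it is no second chain. Counting cells by distinct CDR3 sequences left the WT share at 9.71% and gave 9.86% (6.21 to 14.7%) of Btla KO TRAV12 chains. The TRAV12 chains of such cells had a median of 3 UMIs in the WT and 1 in the Btla KO library, against 4 and 3 for their non-TRAV12 partner chains.

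More than 1 TRB chain, which can come from droplets with several cells, was found in 10 of 206 WT cells with a TRAV12 chain, 4.85% (2.35 to 8.75%), against 8.14% (6.81 to 9.65%) of other cells with a TRA chain. In the Btla KO library it was 7.18% (4.07 to 11.6%) against 9.57% (8.16 to 11.1%). Among cells with a TRAV12 chain and more than 1 TRA chain, 2 of 20 WT and 2 of 19 Btla KO cells had more than 1 TRB chain. The part of such droplets in the lower share of second alpha chains was not tested.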
